A study of Homo sapiens with 4 samples.

Results

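Interferon-stimulated effector genes were followed in MIA PaCa-2, a human line established from a pancreatic carcinoma. The set was defined by a list of 46 gene names, chosen with earlier results of these arrays known, and a gene was kept where a probe named for it had a detection p under 0.01 on at least 2 of 4 arrays. Of 70 probes named for the set, 63 were kept, which read 42 of the 46 genes, out of 13152 probes kept in all and 48803 on the array. Total RNA of 2 untreated control samples and of 2 samples kept for 36 h with IL-1β at 2 ng/ml was hybridised, 1 array for each sample, to bead chips of the Illumina WG-6 v3 design. No genetic change or other agent separates the groups in the labels, and both groups are the same line, so they describe 1 tumour-derived line and not pancreatic tissue. The labels do not say that the samples of a group were separate cultures, so p-values cover only how far these samples differ, and that spread may be technical.

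Interferons are secreted proteins that bind receptors on the cell surface and, through JAK kinases, switch on a large set of genes whose products limit viral replication. Promoters of many of these genes hold the interferon-stimulated response element (ISRE). IL-1β signals through another receptor, chiefly to NF-κB and MAP kinases, and carcinoma lines are known to differ in how strongly they express interferon-stimulated genes without added interferon.

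The ISRE core was looked for in the promoters of the set, taken from RefSeq as the 250 bases before and 50 bases after the start of each gene. Promoters were matched for 39 of the 46 genes. The core was spelled GAAANNGAAA and searched on both strands, with overlapping matches joined into 1 stretch and no correction for overlap with other motifs. It was found in 26 of these 39 promoters (66.7%) and in 3.65% of 27305 promoters of the same length. A few promoters are shown because they cover the patterns described further on, with the ISRE core in capitals on either strand. Those of IFI27, BST2 and LGALS3BP belong to genes with higher values after IL-1β and hold the core, that of XAF1 belongs to a gene with a higher value and holds no match in this window, and those of IFIT3 and IFIH1 hold the core although their genes were not uniformly higher.
IFI27 (GRCh38.p14, chr14:94110486-94110785, plus strand): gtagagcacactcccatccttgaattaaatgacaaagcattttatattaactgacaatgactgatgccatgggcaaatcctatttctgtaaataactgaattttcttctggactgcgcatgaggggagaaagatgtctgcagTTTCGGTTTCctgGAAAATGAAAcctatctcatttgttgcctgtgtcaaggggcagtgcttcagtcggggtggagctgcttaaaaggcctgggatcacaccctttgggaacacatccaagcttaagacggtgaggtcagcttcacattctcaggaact
BST2 (GRCh38.p14, chr19:17405581-17405880, minus strand): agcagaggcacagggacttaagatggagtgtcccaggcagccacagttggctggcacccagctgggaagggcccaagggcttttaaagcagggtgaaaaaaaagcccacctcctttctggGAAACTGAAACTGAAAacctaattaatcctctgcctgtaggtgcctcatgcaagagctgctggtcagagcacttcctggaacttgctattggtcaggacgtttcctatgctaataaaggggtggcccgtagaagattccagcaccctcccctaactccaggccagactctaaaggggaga
LGALS3BP (GRCh38.p14, chr17:78979874-78980173, minus strand): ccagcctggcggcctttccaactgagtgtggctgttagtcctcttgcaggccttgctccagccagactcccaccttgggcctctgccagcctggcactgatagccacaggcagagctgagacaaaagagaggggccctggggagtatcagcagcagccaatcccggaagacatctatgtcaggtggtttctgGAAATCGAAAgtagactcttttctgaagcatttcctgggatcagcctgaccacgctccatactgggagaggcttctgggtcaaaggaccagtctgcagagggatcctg
XAF1 (GRCh38.p14, chr17:6755796-6756095, plus strand): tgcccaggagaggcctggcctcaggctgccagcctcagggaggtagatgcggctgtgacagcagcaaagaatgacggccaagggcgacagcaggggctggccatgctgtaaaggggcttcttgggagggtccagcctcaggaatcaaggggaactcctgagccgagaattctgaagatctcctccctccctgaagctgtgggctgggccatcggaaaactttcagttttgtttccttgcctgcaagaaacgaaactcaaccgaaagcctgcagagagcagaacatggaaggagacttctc
IFIT3 (GRCh38.p14, chr10:89327747-89328046, plus strand): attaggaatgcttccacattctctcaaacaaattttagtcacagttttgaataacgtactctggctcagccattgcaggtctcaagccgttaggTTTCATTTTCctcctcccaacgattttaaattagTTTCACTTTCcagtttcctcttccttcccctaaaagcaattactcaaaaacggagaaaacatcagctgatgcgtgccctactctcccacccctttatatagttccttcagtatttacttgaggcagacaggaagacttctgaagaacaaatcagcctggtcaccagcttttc
IFIH1 (GRCh38.p14, chr2:162318635-162318934, minus strand): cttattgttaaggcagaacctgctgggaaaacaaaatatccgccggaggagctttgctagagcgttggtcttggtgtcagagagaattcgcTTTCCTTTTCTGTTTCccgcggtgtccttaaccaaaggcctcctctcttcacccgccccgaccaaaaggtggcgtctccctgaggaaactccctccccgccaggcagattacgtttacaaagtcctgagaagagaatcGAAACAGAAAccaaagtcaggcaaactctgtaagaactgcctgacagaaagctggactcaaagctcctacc
BST2 has 1 stretch of 3 neighbouring GAAA repeats, and IFI27 has a pair of cores that face opposite ways. The GAS element, searched as TTCNNNGAA, was in 9 of the 39 promoters and 7.88% of all promoters, and the κB consensus, to which NF-κB binds, was in 7 of the 39 and 10.8% of all. The promoters of XAF1, BST2 and IFIH1 are among the 7 with a κB match. A match says only that these letters are present, and the lack of one does not show that a promoter has no ISRE. Pairs of GAAA with a shorter spacing, which the XAF1 promoter holds, were not counted as matches.

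Most genes of the set were already detected without IL-1β: 62 of the 63 kept probes were detected on all 4 arrays, and that of SAMD9L, which restricts translation, on 1 control and both IL-1β arrays. The 3 genes named on the array without a kept probe were CMPK2, EPSTI1 and IFI44L, none of them detected on any array, and HERC6 is not named in the probe table. Other probes left out were 1 of ADAR and 1 of UBE2L6, detected on no array, and 1 of OAS3, detected on 1 control array. As a check of the line, the epithelial keratins KRT8, KRT18 and KRT19 were detected on all arrays by at least 1 probe each, while KRT7, EPCAM and CDH1 were not detected on any. All 4 kept keratin probes were lower after IL-1β, with a median of -0.21 on the log2 scale, and 1 of KRT18 (-0.24 ± 0.10) had an unadjusted p under 0.05. Of 5 fibroblast markers only COL1A2, a chain of type I collagen, was detected, on all 4 arrays by both probes, at -0.24 ± 0.10 and -0.31 ± 0.09, the second with an unadjusted p under 0.05. Of 4 endothelial markers CDH5 was detected on all 4 arrays and differed by -0.01 ± 0.11, and PECAM1 was detected on 1 array. The leukocyte gene PTPRC and the 4 markers of plasmacytoid dendritic cells, which make much interferon, were not detected on any array. Among leukocyte markers CD14 was detected on 2 arrays by 1 probe, which differed by -0.08 ± 0.16, and CD68, a lysosomal protein, was detected by 3 probes that were higher after IL-1β by 0.16 to 0.51 on the log2 scale. The part of these markers in the values of the set was not tested. Raw intensities averaged 527 and 549 in controls against 482 and 449 with IL-1β, and precision is limited throughout by having 4 arrays.

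Setting treated against untreated cells asks how far the set moved with the cytokine. Values here are log2 intensities after background correction and quantile normalization, and differences are IL-1β minus control, with ± for the SE. The set was shifted upward by a small amount. Of the 63 probes, 46 were higher and 17 lower after IL-1β, with a median log2 difference of 0.15 and quartiles of -0.01 and 0.28, beside 49.7% higher and a median of 0.00 over all 13152 probes. No probe of the set passed an adjusted p of 0.05 in limma, and the background is 0% of all probes. With limma's trend and robust settings 9 probes of 8 genes passed, all of them higher, or 14.3% of the set beside 2.58% of all probes. At an unadjusted p under 0.05, 15 probes of 13 genes were higher, or 23.8% of the set beside 9.25% of all probes, and 4 probes of 3 genes were lower, or 6.35% beside 9.28%. With no test, both IL-1β arrays lay above both controls in 34 probes (54.0% beside 25.5% of all probes) and below both in 5 (7.94% beside 25.2%). Of those above, 11 were also at least 0.32 apart on the log2 scale (7.83% of all probes) and 2, of IFI27 and XAF1, at least 1.5-fold (1.52%). Differences were small, since 46 of the 63 probes were less than 0.3 apart on the log2 scale.

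**Figure D1:**
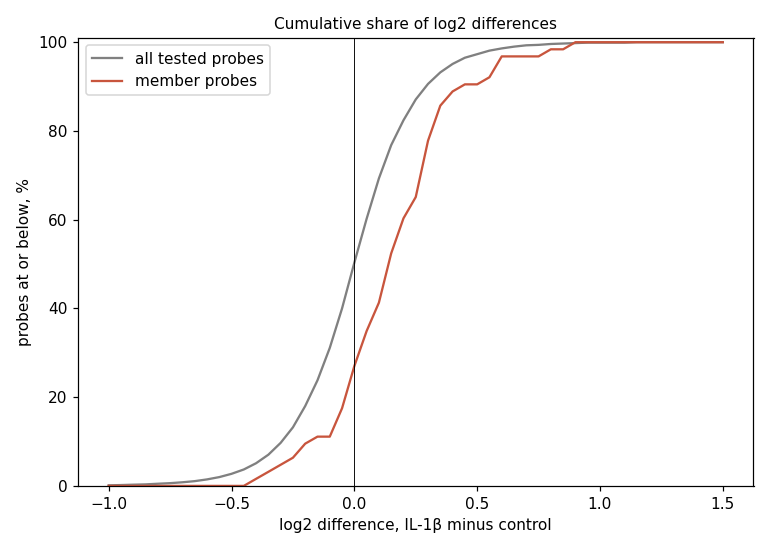
Cumulative share of probes, in percent, at or below each log2 difference of IL-1β minus control, for the 63 probes of the set (red) and all 13152 tested probes (grey). At a difference of 0 the share is 27.0% of the set and 50.3% of all probes, and the red curve lies to the right of the grey one from -0.4 to 0.85.

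The upward shift was seen against each control array. The median difference over the 63 probes was 0.12 and 0.12 for the IL-1β arrays against control replicate 1, and 0.15 and 0.16 against control replicate 2. Between the 2 control arrays the median was -0.01 and between the 2 IL-1β arrays it was 0.05, with medians of 0.00 over all probes in each of these pairs. Of the 63 probes, 43 to 49 were higher on an IL-1β array than on a control array. Likewise 43 were higher on IL-1β replicate 2 than on IL-1β replicate 1, and 31 on control replicate 2 than on control replicate 1. A count of higher probes thus does not by itself set the treatment apart from a replicate. Median scaling over all probes moved the median of all tested probes to -0.22 and that of the set to -0.04, with 4 probes of the set higher at an unadjusted p under 0.05 (1.95% of all probes) and 11 lower (32.2% of all probes), so a direction is relative to the other genes measured. Under that scaling 21 of the 46 higher probes turned lower, and 24 lay below both controls without overlap (59.9% of all probes). In the authors' series matrix values 9 turned lower, 6 were lower at an unadjusted p under 0.05 (14.4% of all probes) and 13 lower without overlap (37.0%). Without IL-1β replicate 2 the median difference of the set was 0.16, beside 0.00 over all tested probes.

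**Figure D2:**
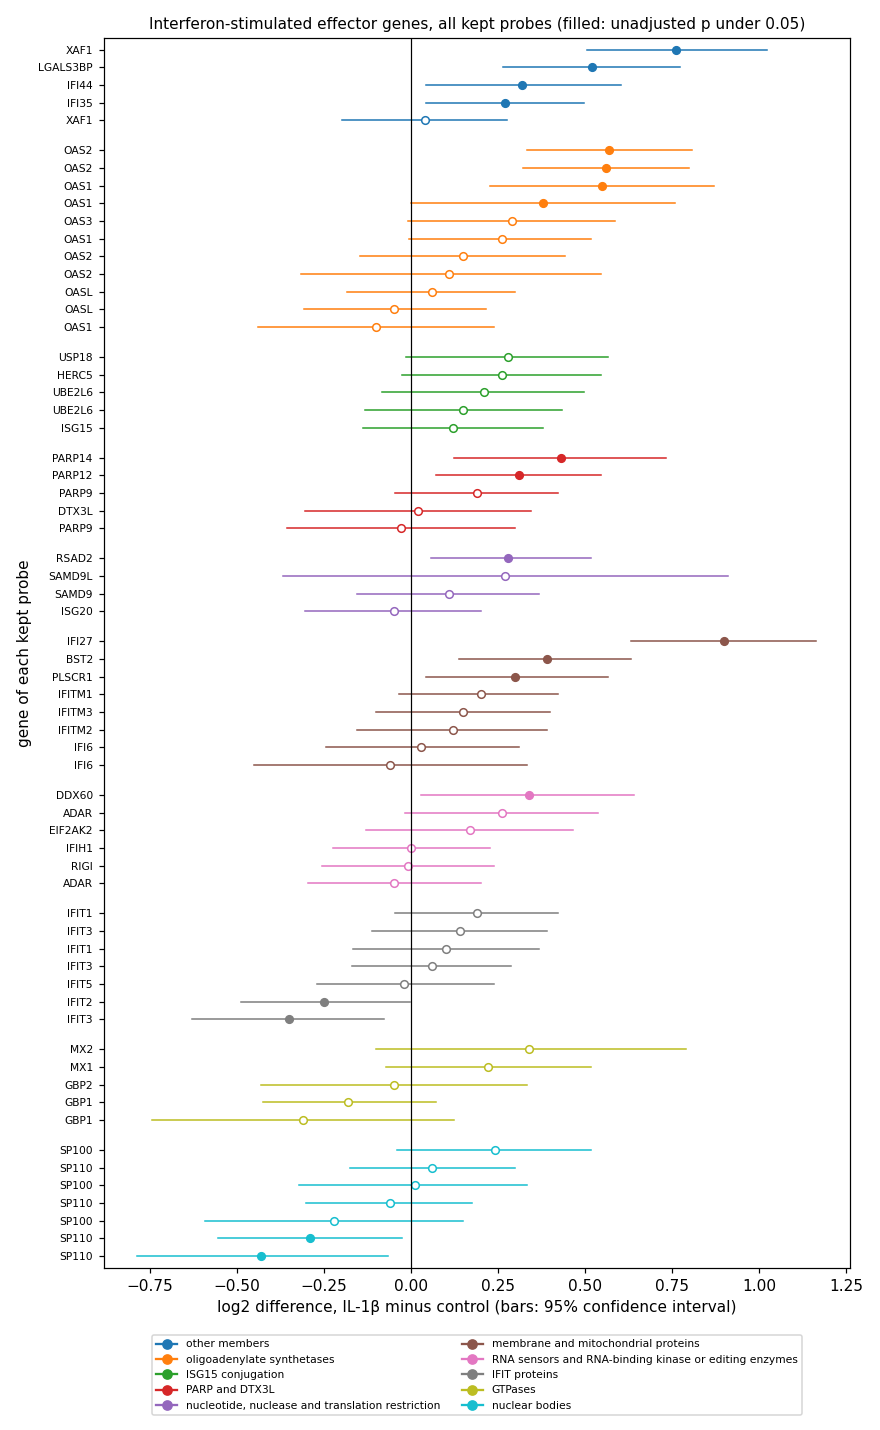
Log2 difference of IL-1β minus control for each kept probe, 1 row a probe and labelled by gene, coloured by role; bars are 95% confidence intervals over 4 arrays and filled points have an unadjusted p under 0.05. IFI27 at 0.90 and XAF1 at 0.76 lie furthest to the right, and probes of SP110 and IFIT3 furthest to the left at -0.43 and -0.35.

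Among membrane and mitochondrial proteins, 7 of 8 probes were higher, and 3 of them, for IFI27, BST2 and PLSCR1, had an unadjusted p under 0.05. With median scaling over all probes, which put the median of all tested probes at -0.22, 5 of 8 were higher. IFI27, a small interferon-induced protein of mitochondria and membranes, had the largest difference of the set. Its log2 intensities were 11.18 and 11.25 in controls and 12.03 and 12.20 with IL-1β. The groups were well apart, at 1.86-fold (95% confidence interval 1.55 to 2.24, adjusted p = 0.0774 in limma). BST2, or tetherin, holds budding virus at the cell surface, and read 10.50 on both controls and 10.82 and 10.95 with IL-1β, or 1.31-fold (1.10 to 1.55, adjusted p = 0.158). PLSCR1, a phospholipid scramblase with antiviral activity, read 8.84 and 9.00 in controls and 9.22 and 9.23 with IL-1β, a difference of 0.30 ± 0.10. The groups of BST2 and of PLSCR1 did not overlap either. The entry inhibitors IFITM1, IFITM2 and IFITM3, which are close homologues that probes may not fully separate, differed by 0.20, 0.12 and 0.15. The probes of IFI6, a relative of IFI27, were at the control level, with one at 13.71 and 13.28 in controls and 13.42 and 13.45 with IL-1β and the other at 11.43 and 11.63 against 11.58 and 11.54. IFI27 and IFI6 thus lay at opposite ends of this group, at 0.90 against -0.06 and 0.03.

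The oligoadenylate synthetases, which sense double-stranded RNA and activate the ribonuclease RNase L, had 9 of 11 probes higher and a median difference of 0.26. Under median scaling over all probes their median was 0.02 with 6 of 11 higher, beside a median of -0.22 over all tested probes. OAS1, OAS3 and OAS2 are consecutive protein-coding genes on chromosome 12. One probe of OAS2 read 11.81 and 11.72 in controls and 12.31 and 12.33 with IL-1β, or 1.47-fold (0.56 ± 0.10 on the log2 scale, adjusted p = 0.104). A dimmer probe of OAS2 read 7.56 and 7.52 against 8.07 and 8.15, or 1.49-fold (1.26 to 1.75). In both of these the IL-1β arrays were clearly above the controls, while the remaining OAS2 probes overlapped between the groups. Those read 6.48 and 6.92 against 6.72 and 6.92, a difference of 0.11 ± 0.17, and 8.25 and 8.02 against 8.33 and 8.24, a difference of 0.15 ± 0.12. For OAS1, 2 of 4 probes had an unadjusted p under 0.05. The probe with the largest difference read 8.98 and 8.70 in controls and 9.45 and 9.34 with IL-1β, or 1.47-fold (1.17 to 1.83, adjusted p = 0.140), and another read 7.07 and 6.74 against 7.17 and 7.40. Of the others, one was higher with no overlap, at 9.62 and 9.68 against 9.99 and 9.82, and one overlapped, at 6.87 and 6.61 against 6.54 and 6.75. The probe of OAS3 differed by 0.29 ± 0.12 with no overlap. OASL, which lacks synthetase activity and binds RIG-I, stayed near the control level, with probes at 11.53 and 11.42 against 11.55 and 11.51 and at 9.56 and 9.73 against 9.58 and 9.62.

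**Figure D3:**
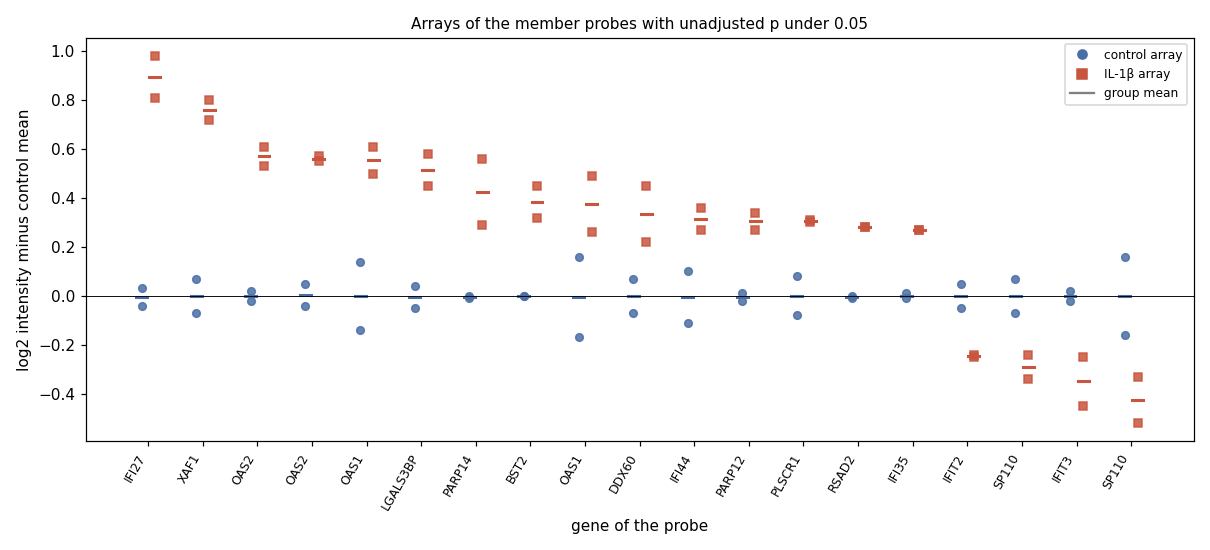
Log2 intensity of each array minus the mean of the controls, for the 19 probes of the set with an unadjusted p under 0.05, with controls as circles, IL-1β arrays as squares and short lines for group means. In 15 probes both squares lie above both circles and in the last 4, of IFIT2, SP110 and IFIT3, both lie below.

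XAF1, an antagonist of the inhibitor of apoptosis proteins, was among the largest differences but only by one of its probes. That probe read 8.43 and 8.29 in controls and 9.16 and 9.08 with IL-1β, or 1.70-fold (1.42 to 2.03, adjusted p = 0.0871). The other, annotated to the same transcript record, read 7.42 and 7.51 against 7.51 and 7.50, or 1.03-fold (0.871 to 1.21). LGALS3BP, a secreted galectin-binding glycoprotein, read 9.06 and 9.15 in controls and 9.69 and 9.56 with IL-1β, or 1.43-fold (1.20 to 1.71, adjusted p = 0.114). IFI44, a cytoplasmic interferon-induced protein, read 7.97 and 7.76 against 8.14 and 8.23, a difference of 0.32 ± 0.11. IFI35, which partners with NMI, read 10.65 and 10.63 in controls and 10.91 on both IL-1β arrays. None of LGALS3BP, IFI44 and IFI35 overlapped between the groups.

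The PARP proteins with ADP-ribosylation activity and their ubiquitin ligase partner DTX3L differed unevenly, with 4 of 5 probes higher. With median scaling over all probes 2 of 5 were higher, where the median of all tested probes was -0.22. PARP14 read 9.26 and 9.25 in controls and 9.82 and 9.55 with IL-1β, or 1.35-fold (1.09 to 1.66, adjusted p = 0.178). PARP12 read 9.80 and 9.83 against 10.09 and 10.16, a difference of 0.31 ± 0.09. Both were higher without overlap. PARP9 and DTX3L work as a complex and are neighbouring genes on chromosome 3. DTX3L differed by 0.02 ± 0.13, and the probes of PARP9 read 10.28 and 10.35 against 10.49 and 10.52, and 7.85 and 7.85 against 7.67 and 7.98, so only the brighter one was apart.

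The cytosolic RNA sensors RIGI (RIG-I, listed earlier as DDX58) and IFIH1 (MDA5) were at the control level, at -0.01 ± 0.10 and 0.00 ± 0.09. IFIH1 read 11.14 and 11.15 in controls and 11.15 on both IL-1β arrays. DDX60, a helicase linked to RIG-I signalling, read 9.96 and 9.82 against 10.11 and 10.34, or 1.26-fold (1.02 to 1.56), with no overlap. EIF2AK2, the kinase PKR that halts translation on binding double-stranded RNA, differed by 0.17 ± 0.12. ADAR, which edits adenosine in double-stranded RNA, had one probe at 11.80 and 11.92 against 11.77 and 11.86 and another at 10.30 and 10.38 against 10.51 and 10.69, and only the second was apart, by 0.26 ± 0.11.

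The genes of ISG15 conjugation were all slightly higher, and none had an unadjusted p under 0.05. Only 2 of 5 probes were higher with median scaling over all probes, where the median of all tested probes was -0.22. ISG15, a ubiquitin-like modifier, differed by 0.12 ± 0.10, its conjugating enzyme UBE2L6 by 0.21 and 0.15 on its probes, its ligase HERC5 by 0.26 ± 0.12 and its protease USP18, which also dampens interferon receptor signalling, by 0.28 ± 0.12. In 4 of these 5 probes the groups did not overlap, where 25.5% of all probes were higher without overlap.

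The remaining group acts on nucleotides, RNA and translation. RSAD2 (viperin), which makes a chain-terminating nucleotide, read 8.72 and 8.73 in controls and 9.01 on both IL-1β arrays, a difference of 0.28 ± 0.09. ISG20, an exonuclease, differed by -0.05 ± 0.10, and SAMD9 and SAMD9L by 0.11 ± 0.11 and 0.27 ± 0.26. Of these 4 genes only RSAD2 had control and IL-1β arrays that did not overlap.

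The dynamin-like GTPases and the guanylate-binding proteins differed in sign, with 2 of 5 probes higher. With median scaling over all probes 1 of 5 was higher, where the median of all tested probes was -0.22. MX2 read 8.22 and 7.71 in controls and 8.28 and 8.33 with IL-1β, or 1.27-fold (0.933 to 1.73), with control replicate 2 far below the other arrays and the remaining control close to the IL-1β arrays. MX1, which traps viral nucleocapsids, differed by 0.22 ± 0.12. GBP1, a GTPase best known as a target of interferon-γ, was lower on both of its probes, at -0.18 ± 0.10 and -0.31 ± 0.17, and GBP2 differed by -0.05 ± 0.15. Only one probe of GBP1 was apart between the groups.

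The IFIT proteins, which bind viral RNA and block its translation, included lower values, with 4 of 7 probes higher. With median scaling over all probes 0 of 7 were higher, where the median of all tested probes was -0.22. IFIT2 read 12.38 and 12.28 in controls and 12.08 and 12.09 with IL-1β, and was 1.19-fold lower (1.00 to 1.40, adjusted p = 0.266). One probe of IFIT3 read 9.27 and 9.23 in controls and 8.80 and 9.00 with IL-1β, 1.28-fold lower (1.06 to 1.55, adjusted p = 0.198). Both IL-1β arrays lay below both controls in these probes. The other IFIT3 probes, annotated to another transcript record, read 11.52 and 11.53 against 11.57 and 11.60, and 11.23 and 11.31 against 11.35 and 11.46, so the sign for IFIT3 depends on the probe. IFIT1 differed by 0.19 ± 0.09 and 0.10 ± 0.11 on its probes, and IFIT5 by -0.02 ± 0.10. IFIT2 and IFIT3 are consecutive protein-coding genes on chromosome 10, as are IFIT1 and IFIT5.

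SP100 and SP110, proteins of nuclear bodies, also included lower values, with 4 of 7 probes lower. In the authors' series matrix values 6 of 7 were lower, where the median of all tested probes was -0.08. Of 4 probes of SP110, one read 8.04 and 8.36 in controls and 7.68 and 7.87 with IL-1β, 1.34-fold lower (1.05 to 1.72, adjusted p = 0.219), and a brighter one read 11.20 and 11.06 against 10.79 and 10.89, 1.22-fold lower (1.02 to 1.47). Neither overlapped between the groups. The third, on the same transcript record, read 10.24 and 10.34 against 10.21 and 10.24, and the fourth, on another record, read 7.23 and 7.22 against 7.24 and 7.34. The probes of SP100 read 7.49 and 7.26 against 7.28 and 7.49, 7.62 and 7.82 against 7.92 and 7.98, and 8.59 and 8.82 against 8.33 and 8.64, of which only the second was apart.

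Probes of one gene often differed in this set. Of 13 genes with several kept probes, 8 had probes of both signs and 7 had probes over 0.3 apart on the log2 scale. Over all 2004 named genes with several kept probes, 39.2% had both signs and 23.0% were over 0.3 apart. Those genes were not matched to the set by number of probes, and more probes make both outcomes likelier. No gene of the set had probes with an unadjusted p under 0.05 in both directions.

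**Figure D4:**
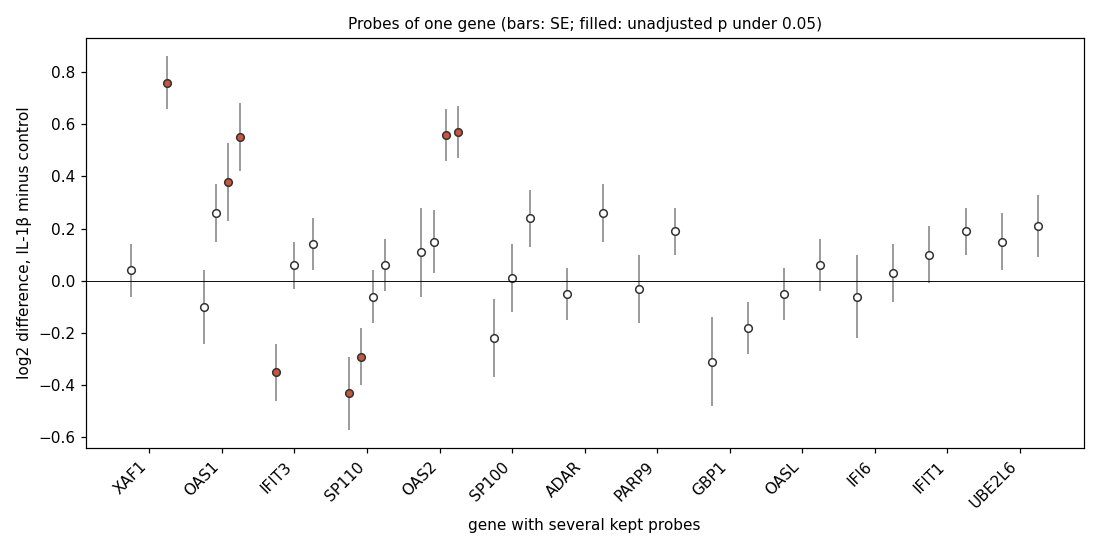
Log2 difference of IL-1β minus control, with its SE, for every kept probe of the 13 genes with several, ordered by the spread between probes; filled points have an unadjusted p under 0.05. The probes of XAF1 lie 0.72 apart and those of OAS1 0.65 apart, while those of UBE2L6 lie 0.06 apart.

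The set was also described by whether a promoter held an ISRE match, with no test of the difference. The 24 genes with a match in their promoter had 29 kept probes with a median difference of 0.15, of which 19 were higher without overlap (65.5%) and 2 lower. The 11 genes with a promoter but no match had 23 probes with the same median of 0.15, of which 11 were higher without overlap (47.8%) and 2 lower. These shares count probes and not genes. Among the 23 probes, OAS1 and SP110 have 4 each and SP100 has 3, so a few genes weigh heavily. Pairs of GAAA with a shorter spacing were not counted as matches, so these 11 genes are not known to lack an ISRE. Over all probes 25.5% were higher and 25.2% lower without overlap.

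In the authors' deposited table of scores, which holds 1440 signed entries of unstated formula, 15.6% of entries are above 0. In that table the set has 12 entries for 11 genes, and 9 of them are above 0. The authors' deposited table lists scores of 128 and 25.2 for OAS2, 92.9 for XAF1, 82.2 for IFI27, 26.0 for BST2, 24.6 for IFITM1, 17.1 for OAS1, 15.3 for PARP12 and 13.9 for LGALS3BP. Scores below 0 in the authors' deposited table belong to IFIT2 (-41.8), IFIT3 (-40.8) and SP110 (-29.9). These entries come from the same arrays, so they are no second measurement.

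Upstream of the set, 1 of 6 probes of signal transducers and 2 of 7 of nucleic acid sensing were higher at an unadjusted p under 0.05. Lower were 1 of 2 probes of interferon genes and 1 of 7 of nucleic acid sensing. Over all probes 9.25% were higher and 9.28% lower, and no difference of these short lists from those shares was tested. Of 21 interferon genes, probes of IFNA8 and IFNL1 were kept. That of IFNA8 read 7.65 and 7.67 in controls and 7.44 and 7.20 with IL-1β, a difference of -0.34 ± 0.12. IFNA8 is one of a family of near-identical genes whose probes may not separate them. The other probe of IFNA8 read 4.76 and 4.87 in controls and 4.89 and 4.91 with IL-1β. It was detected on no array, like the probes of all other IFNA genes, so a signal of IFNA8 rests on the kept probe alone. The kept probe of IFNL1 differed by 0.01 ± 0.16, and its other probe was detected on no array. The 8 probes of the interferon receptors lay between -0.11 and 0.30, with none at an unadjusted p under 0.05. Of the signal transducers, IRF9 read 11.13 and 11.20 in controls and 11.44 and 11.37 with IL-1β, a difference of 0.24 ± 0.10, while IRF1, a factor shared by interferon and NF-κB signalling, differed by 0.02 ± 0.10. The probes of IRF7 were not detected.

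Of 7 genes of nucleic acid sensing with a kept probe, IKBKE, a kinase that activates IRF3, differed by 0.49 ± 0.10, and TRIM25, the ubiquitin ligase of RIG-I, by 0.32 ± 0.11. STING1, the adaptor of cytosolic DNA sensing, read 7.96 and 7.83 in controls and 7.40 and 7.51 with IL-1β, a difference of -0.44 ± 0.10. None of the 5 probes for feedback inhibitors had an unadjusted p under 0.05. In a further list of 36 interferon-stimulated genes outside the set, 33 probes of 25 genes were kept, 23 were higher, the median difference was 0.11, and 8 were higher and 2 lower at an unadjusted p under 0.05, where 9.25% of all probes were higher and 9.28% lower. The kept probe of LAMP3 differed by 1.27 ± 0.12. Its other probe was detected on 1 array and left out, at 5.88 and 5.78 in controls and 5.93 and 6.12 with IL-1β. TRIM22, an antiviral ubiquitin ligase, differed by 0.74 ± 0.13, with log2 intensities of 6.71 and 6.50 in controls and 7.22 and 7.47 with IL-1β. Those of the 8 higher probes that read TRIM21, TRIM5, PSMB8 and PSMB9 differed by 0.25 to 0.39. That of PML passed the detection filter only through the IL-1β arrays, so its place among the 8 is no support for the list. It was not well above background on either control array and was at least 1.08-fold higher with IL-1β. The other probes of PML did not pass the filter. The lower probes were of RNF213, at -0.35 ± 0.12, and of ZC3HAV1, at -0.28 ± 0.10, whose other probes were at -0.09 and 0.08. CXCL10, a chemokine strongly induced by interferons, differed by 0.02 ± 0.11. No probe of these lists passed an adjusted p of 0.05.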

How the data were processed

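The members and lists of genes were chosen with earlier results of these data known. The authors deposited raw linear probe intensities, not background-subtracted, with detection p-values, per the file headers; the scanning software and annotation are not given in the sources used here. The authors' deposited series matrix holds background-subtracted intensities scaled to a common mean, read from its values, and their table of scores has no stated formula. From the raw intensities, neqc of limma 3.58.1 in R 4.3.3 inferred the background from the detection p-values, added an offset of 16, normalized quantiles and took log2. Probes detected at p under 0.01 by 2 or more arrays were tested with lmFit and eBayes, two-sided, with Benjamini and Hochberg adjustment over 13152 probes. Log2 differences had a median SE of 0.111 and 5.52 degrees of freedom. Probe names came from a platform table in which 27578 probes have 1 gene, 13 have several and 21212 have none. Between 12740 and 13157 probes were detected per array (26.1% to 27.0%).

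Members were named in full where a kept probe had an unadjusted p under 0.05, or lay at least 1.25-fold apart without overlap, or where probes of a gene differed in sign or by over 0.3, and others are given as differences or ranges; of the further lists and the marker lists, the probes with an unadjusted p under 0.05 were named, with the interferon genes, IRF1, IRF7 and IRF9. Alternatives changed the background, scaling, filter, variance model and probe averaging, used the replicate number as a block, or left out each array. In 10 simulations of 13152 probes with 200 changed in a mix of sizes, the fit called 3.00% of probes changed by 0.5 on the log2 scale, 75.0% of those changed by 1 and 97.8% of those changed by 2. The mix also held changes of 3, and large changes ease the adjustment for smaller ones. On these arrays no probe passed an adjusted p of 0.05 in limma, that of LAMP3 at 1.27 included. These shares may therefore be too high for the data here.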

Additional observations from a re-analysis of the deposited data

How the results depend on the processing

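All 19 probes of the set with an unadjusted p under 0.05 kept their direction in the 16 settings in which they were fitted one by one. Part of that agreement was fixed in advance. The reported fit is among these settings, and the filters, the variance model and the replicate block leave a difference unchanged. The 19 probes were also picked by their p-value in the reported fit. In limma as reported, 0 probes of the set passed an adjusted p of 0.05, and 19 had an unadjusted p under 0.05. The number that passed was 2 with a background offset of 50 (0.692% of all probes) and with detection on all 4 arrays (0.548%), of IFI27 and XAF1 in both, 8 with no background correction (4.74%), 9 with trend and robust settings (5.54%) and 3 with median scaling over all probes (IFI27 higher, 1 probe each of IFIT3 and SP110 lower), where 6.99% of all probes passed. All 9 with trend and robust settings were higher, of IFI27, XAF1, OAS2, LGALS3BP, OAS1, BST2, PARP14 and PARP12, where 2.58% of all probes were called higher. The count of higher probes at an unadjusted p under 0.05, 15 as reported, was 23 with trend and robust settings (10.6% of all probes) and likewise with no background correction (10.7%), 7 in the authors' series matrix values (4.97% of all probes), 4 with median scaling over all probes (1.95%), and 9 to 12 when 1 array was left out. That of higher probes without overlap was 10 with median scaling over all probes (6.01% of all probes), where the median difference turned to -0.04, and 11 or 2 where a difference of at least 0.32 on the log2 scale or of 1.5-fold was asked for as well. When 1 array was left out the median lay between 0.11 and 0.16. Median scaling over all probes, which replaces the quantile normalization, put the median over tested probes at -0.22 and moved single probes of the set by -0.26 to -0.11, and the cause of the other shifts was not tested.

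With median scaling over all probes 21 of the 63 probes turned lower. Among genes with a probe at an unadjusted p under 0.05 these were probes of IFIT3 (-0.16 and -0.07), OAS2 (-0.09 and -0.09), SP110 (-0.15) and XAF1 (-0.19). In the authors' series matrix values 9 turned lower, among them IFIT3 (0.00), SP110 (-0.02) and XAF1 (-0.06). When 1 array was left out, probes that turned ranged from -0.23 to 0.04 (OAS1), -0.11 to 0.33 (OAS2) and -0.01 to 0.08 (XAF1). With the replicate block, 11 probes of the set were higher and 2 lower at an unadjusted p under 0.05, against 15 and 4 as reported, and 0 passed an adjusted p of 0.05. The labels do not say whether same-numbered samples were handled together. Deviations of same-numbered arrays correlated at -0.09 over the tested probes, which with 2 replicates per group cannot settle it. Signal over background limits the probes near background, such as that of SAMD9L.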
